A study of Mus musculus with 2 samples.

Results

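The 47 genes described here encode the machinery that copies DNA and divides a cell. They were chosen by name, as a set covering nucleotide supply, the replicative helicase, mitotic cyclins and kinases, kinesins, condensins and cytokinesis, and all 47 were found among the 49315 genes of the deposited table. By role, 12 are replication genes, which are used in S phase, and 35 are mitosis genes, which are used from late S phase to cell separation. RNA was sequenced from cells labelled as macrophages of mouse dorsal root ganglia, the sensory ganglia beside the spinal cord, in 1 library of mice under normoxia and 1 library of mice under chronic intermittent hypoxia. The hypoxia mice breathed cycles between 21% and 8% oxygen of 6 min each (10 per hour) for 8 hours per day over 14 days, whereas the normoxia mice had a sham exposure that kept them at 21% oxygen. Samples were taken about 18 hours after the last exposure. The sources used here do not state strain, age, sex, how many mice were pooled or how the cells were isolated.

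Replication starts when the Mcm2 to Mcm7 helicase, loaded on origins in G1, unwinds the duplex and polymerases follow on the Pcna clamp. Ribonucleotide reductase (Rrm1 and Rrm2), thymidylate synthase (Tyms) and thymidine kinase (Tk1) supply the deoxynucleotides. In mitosis, cyclin B with Cdk1 drives condensation of chromosomes by condensin, kinesins and their partners build the spindle, and the anaphase-promoting complex with Cdc20 ends the phase by destroying cyclins. Many tissue macrophages renew themselves by division in place, and red cell and neutrophil precursors divide rapidly in bone marrow, so these transcripts mark dividing cells of any lineage.

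With a single library on each side, none of the differences has a replicate check and no p-value was computed. All intervals are 95% intervals for counting error only, and reads copied from 1 molecule are not independent. The normoxia library held 2171348 counts over 4640 counted genes and the hypoxia library 145056 over 2050, a 15.0-fold difference in depth. The link between the hypoxia label and its column rests on 1 letter of the column's code. Genes present in a single library with 10 counts or more had a median of 229 counts in normoxia and 39 in hypoxia. These medians were read as the size of 1 block of counts. Not all genes fit such blocks, since 443 counted genes in normoxia (9.55%) and 243 in hypoxia (11.9%) had under 10 counts. On the untested assumption that such a block stems from 1 starting molecule, the libraries held about 9482 and 3719 molecules. Markers of the labelled cell type were uneven. Of 16 macrophage markers 13 were counted in normoxia and 2 in hypoxia. Over all genes, 25% of those counted in normoxia were also counted in hypoxia. Adgre1 (F4/80), Cd68, Csf1r and the C1q genes were at 0 in hypoxia. Lyz2 (3164 counts), which neutrophils also express, made up nearly all of the list there. Taken singly, the zeros of Cd68, Csf1r and the C1q genes are not resolved on estimated molecules.

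As a set, the replication and mitosis genes took similar small shares of both libraries. They held 0.908% of the normoxia counts (Clopper-Pearson interval 0.896 to 0.921) and 0.932% of the hypoxia counts (0.883 to 0.983). Dividing hypoxia by normoxia gives 1.03, and counting error leaves 0.970 to 1.08 by reads or 0.671 to 1.54 by estimated molecules. The replication share was 0.185% in normoxia and 0.183% in hypoxia, and their ratio was 0.989 (by reads 0.870 to 1.12, by molecules 0.343 to 2.52). Single genes turn it in either direction, to 1.55 (1.36 to 1.76 by reads) without Rrm1 and 0.745 (0.638 to 0.867) without Mcm7. The mitosis share was 0.724% and 0.749%, and their ratio was 1.04 (by reads 0.973 to 1.10, by molecules 0.642 to 1.63). The balance of the 2 phases, which does not depend on how the libraries are scaled to each other, was also alike. Of the set's counts, replication genes made up 20.3% (19.8 to 20.9) under normoxia and 19.6% (17.5 to 21.8) under hypoxia. Rrm1 alone held 7.34% of the set's counts in normoxia and 0% in hypoxia, so this likeness also rests on single genes. By molecules, replication over mitosis had intervals of 0.142 to 0.436 in normoxia and 0.0885 to 0.577 in hypoxia. TMM scaling (trimmed mean of M values), which rests on the genes that both libraries share, multiplies every ratio of shares by 0.573 and gave 0.588 for the set, with an interval on molecules of 0.384 to 0.881. The direction of the summed share therefore depends on the scaling.

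Which genes carried the share did differ between the libraries. In normoxia 30 of the 47 genes were counted, beside 9.41% of all genes in the table, and in hypoxia 22, beside 4.16%, with 17 in both, 13 in normoxia alone, 5 in hypoxia alone and 12 in neither. So 17 of the 30 genes counted in normoxia (56.7%) were also counted in hypoxia, beside 25% of all genes counted in normoxia. The set was chosen with earlier results of these data known, so this difference is a description and was not tested. Detection went with abundance in the whole library. Of all genes with 100 to 299 counts in normoxia 18.3% were counted in hypoxia, beside 5 of 10 genes of the set. Of all genes with 300 to 999 counts it was 30.3%, beside 7 of 14, and with 1000 to 2999 counts 63.4%, beside 4 of 5. Reading the other way, 17 of the 22 genes counted in hypoxia (77.3%) were counted in normoxia, beside 56.5% of all genes counted in hypoxia.

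**Figure D1:**
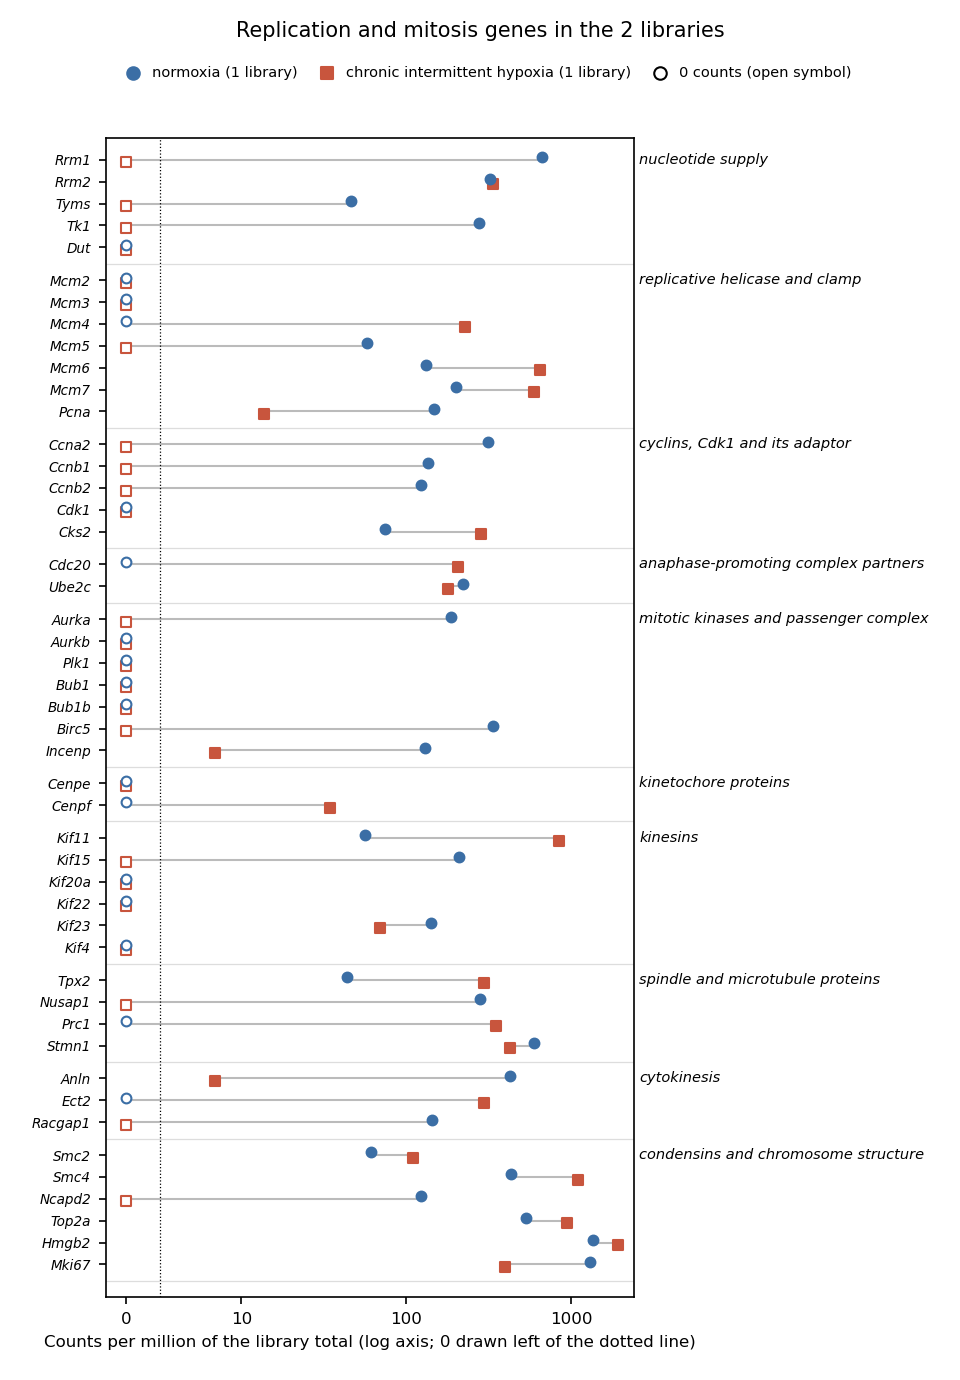
CPM, the count of a gene scaled to a common library total (log axis), for each of the 47 genes, grouped by role, in the normoxia library (circles) and the hypoxia library (squares), with open symbols for 0 counts. The 17 genes counted in both libraries sit among 13 with 0 in hypoxia, 5 with 0 in normoxia and 12 at 0 in both.

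For single genes, the TMM-scaled ratio of hypoxia over normoxia was called lower or higher when it was at least 2-fold with an interval on reads that excluded 1, among genes with at least 50 counts over both libraries. Of the 47 genes 31 had that many counts. A gene seen in hypoxia alone needed 50 of that library's few counts to enter, so the filter passes genes seen in normoxia far more easily. Of the 31 genes 20 (64.5%) were lower in the hypoxia library, beside a background of 75.7% over all measured genes. Of these 20 genes 13 had 0 counts in hypoxia, as had 2883 of the 3192 genes called lower over all. Any gene with at least 50 counts in 1 library and 0 in the other meets this rule by construction. Such a call is not a measured ratio. In the other direction 5 genes (16.1%) were higher, beside a background of 11.9%, and 6 met neither. Among the 5 genes Prc1 had 0 counts in normoxia, as had 224 of the 500 genes called higher over all. The median log2 ratio was −3.90 beside −5.25 over all measured genes, or −2.29 beside −2.75 with each 0 taken as 3 reads. With each 0 taken as 3 estimated molecules the sign turned, to 0.56 beside 1.55, and with genes of at least 1 count the median was −1.78 beside −4.16. Replication and mitosis genes were called in like proportions, with 5 of 8 and 15 of 23 lower and 1 of 8 and 4 of 23 higher. Of the lower calls 4 of 5 and 9 of 15 had 0 counts in hypoxia, so this comparison of the phases rests largely on such calls. On estimated molecules 1 gene of the set, Mki67, was lower (with TMM, but not on total counts) and none was higher, beside a background of 1.3% and 0.19%.

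**Figure D2:**
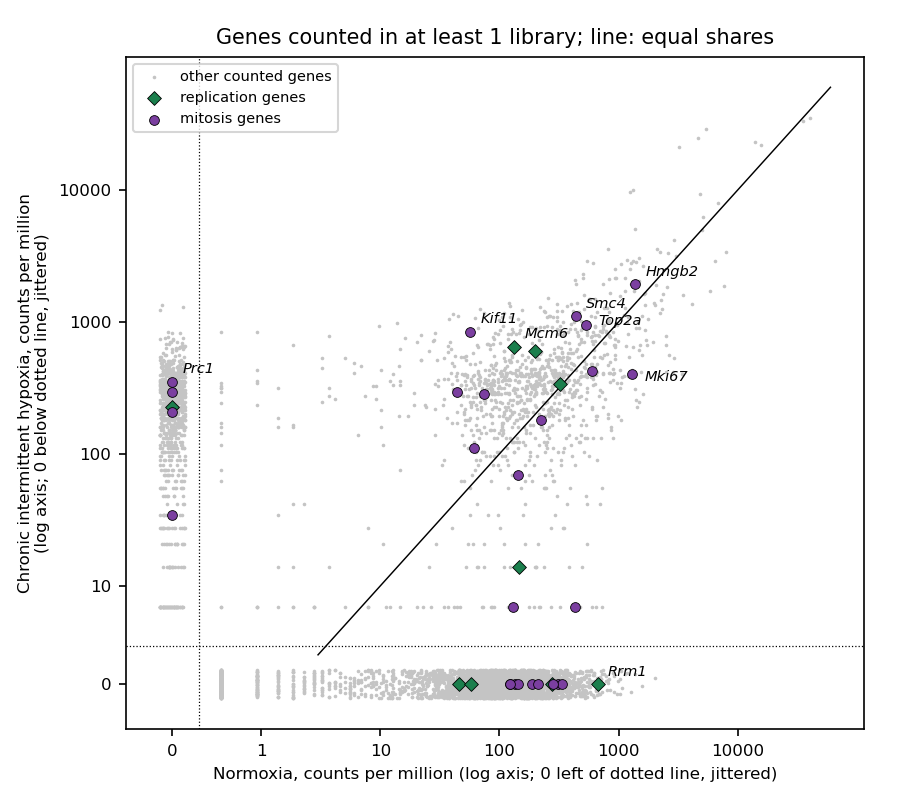
CPM of each gene counted in at least 1 library, normoxia on the horizontal and hypoxia on the vertical axis (both log, with 0 set apart), with replication genes as diamonds and mitosis genes as circles. Hmgb2 and Mki67 lie furthest right among the set, Kif11 and Mcm6 lie well above the line of equal shares, and Rrm1 lies among the genes at 0 in hypoxia.

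The promoters show what the set shares beyond the list itself. Transcription of replication genes is classically tied to E2F factors, and that of mitosis genes to the CHR element (cell cycle genes homology region), which the DREAM and MuvB complexes bind, together with CCAAT boxes bound by NF-Y. The motifs were therefore looked for in this set. RefSeq promoters (GRCm38.p6, 250 bases before to 50 after the start) were found for 39 of the 47 genes, and were not found for Aurkb, Ccna2, Incenp, Kif20a, Mcm4, Smc4, Stmn1 and Tpx2. They were searched on both strands for the CCAAT box as CCAAT, for the CHR element as TTTGAA and for the E2F element as TTTGGCGC, TTTCGCGC, TTTGCCGC or TTTCCCGC, and matches may overlap. A CCAAT box was found in 24 of 28 mitosis promoters (85.7%) and 8 of 11 replication promoters (72.7%), beside 37.4% of all 32851 promoters in the table. The CHR letters were found in 22 of 28 mitosis promoters (78.6%) and 1 of 11 replication promoters (9.09%), that of Mcm2, beside 17.9% of all. The E2F letters were found in 4 of 11 replication promoters (36.4%), all of them Mcm genes, and 3 of 28 mitosis promoters (10.7%), beside 2.26% of all. In the 250 bases before the start alone, the CHR letters were in 13 of 28 mitosis promoters and 1 of 11 replication promoters, beside 16.0% of all, so several matches lie in or reach into the first 50 transcribed bases. A match is a description of letters and was not set against the expression values.

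**Figure D3:**
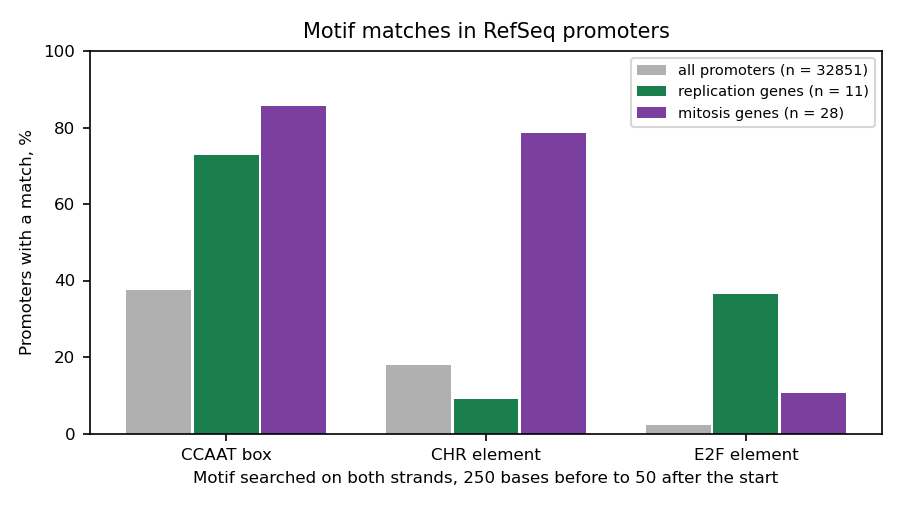
Share of RefSeq promoters with at least 1 match to each motif, for all promoters in the table, the 11 replication promoters and the 28 mitosis promoters found. The CHR element differs most between the sets, at 78.6% of mitosis promoters and 9.09% of replication promoters.

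The 250 bases before the start are printed 5′ to 3′ for 6 genes, the replication and the mitosis gene with most counts in normoxia (Rrm1 and Hmgb2) and the next genes counted in both libraries with most counts in hypoxia, so that the motifs can be seen beside the values. Stretches that overlap an annotated exon, such as that of Mcm7, are left out. The RefSeq starts lie 0 to 64 bases from the GENCODE gene starts. Capitals mark the letters matched to any of the 3 motifs on either strand. The positions on GRCm38.p6 are Rrm1 chr7:102441445-102441694 on the plus strand, Hmgb2 chr8:57511593-57511842 on the plus strand, Top2a chr11:99024190-99024439 on the minus strand, Kif11 chr19:37376132-37376381 on the plus strand, Mcm6 chr1:128359706-128359955 on the minus strand and Mki67 chr7:135716380-135716629 on the minus strand.

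Rrm1: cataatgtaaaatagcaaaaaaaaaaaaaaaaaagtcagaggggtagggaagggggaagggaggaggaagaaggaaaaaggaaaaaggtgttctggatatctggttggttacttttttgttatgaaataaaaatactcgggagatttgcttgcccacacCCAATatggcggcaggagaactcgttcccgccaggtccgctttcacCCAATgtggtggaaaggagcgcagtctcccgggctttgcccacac

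Hmgb2: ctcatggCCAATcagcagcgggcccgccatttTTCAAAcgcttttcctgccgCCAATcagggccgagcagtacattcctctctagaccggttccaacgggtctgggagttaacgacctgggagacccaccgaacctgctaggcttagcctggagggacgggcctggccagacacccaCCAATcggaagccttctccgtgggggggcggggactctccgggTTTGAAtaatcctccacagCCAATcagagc

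Top2a: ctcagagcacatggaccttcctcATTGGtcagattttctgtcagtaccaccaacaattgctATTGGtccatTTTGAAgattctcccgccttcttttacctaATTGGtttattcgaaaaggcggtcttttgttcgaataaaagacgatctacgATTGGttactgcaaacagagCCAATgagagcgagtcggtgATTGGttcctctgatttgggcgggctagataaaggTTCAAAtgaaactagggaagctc

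Kif11: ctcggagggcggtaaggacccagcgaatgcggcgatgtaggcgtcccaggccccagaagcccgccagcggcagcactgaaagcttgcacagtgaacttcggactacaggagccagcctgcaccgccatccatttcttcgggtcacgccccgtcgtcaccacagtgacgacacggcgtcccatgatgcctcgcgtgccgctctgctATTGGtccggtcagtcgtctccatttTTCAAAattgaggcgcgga

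Mcm6: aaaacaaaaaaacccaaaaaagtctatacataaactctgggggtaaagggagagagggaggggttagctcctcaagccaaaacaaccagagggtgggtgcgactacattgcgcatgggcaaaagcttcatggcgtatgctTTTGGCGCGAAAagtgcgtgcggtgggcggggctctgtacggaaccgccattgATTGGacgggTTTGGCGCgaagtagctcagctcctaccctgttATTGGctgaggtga

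Mki67: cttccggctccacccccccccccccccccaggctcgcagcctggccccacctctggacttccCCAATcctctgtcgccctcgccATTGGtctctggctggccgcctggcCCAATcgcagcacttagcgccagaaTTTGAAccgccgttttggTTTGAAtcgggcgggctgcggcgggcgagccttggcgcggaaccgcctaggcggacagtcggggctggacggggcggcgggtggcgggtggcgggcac

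The 4 mitosis genes shown all held both CHR and CCAAT letters. Kif11 held 1 CHR match, 19 to 14 bases before its start on the opposite strand. Top2a held 2, at 23 to 18 bases on the opposite strand and at 179 to 174 on the strand of the gene. Hmgb2 also held 2, at 30 to 25 on the strand of the gene and at 218 to 213 on the opposite strand. Both matches of Mki67, at 98 to 93 and 116 to 111, were on the strand of the gene, and its nearest match lay farther from the start than the nearest of the other 3 genes. The E2F letters lay 47 to 40 and 110 to 103 bases before the start of Mcm6, the latter overlapping a match on the opposite strand at 106 to 99. Rrm1 held 2 CCAAT boxes and neither of the other motifs.

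Within replication, the summed counts of nucleotide supply and of the helicase and clamp genes differed in opposite directions on reads. Of 4 measured helicase and clamp genes 2 were lower in hypoxia and 1 higher, beside 75.7% and 11.9% of all measured genes. Their median log2 ratio was −1.56, the same sign as the −5.84 of nucleotide supply. Nucleotide supply held 0.131% of the normoxia counts but 0.0338% of the hypoxia counts, and the ratio was 0.258 (by reads 0.190 to 0.342). The helicase and clamp genes held 0.0537% and 0.149%, and the ratio was 2.77 (2.39 to 3.21). With TMM these ratios were 0.148 and 1.59. Put together, nucleotide supply was 70.9% (69.5 to 72.3) of the replication counts under normoxia but 18.5% (14.0 to 23.7) under hypoxia. This split is the same under any scaling of the libraries to each other, and on reads its intervals lie far apart. On estimated molecules it rests on 12.4 and 5.10 molecules in normoxia and 1.26 and 5.54 in hypoxia, and the intervals of the ratio of the 2 groups, 0.811 to 8.68 and 0.00910 to 1.68, overlap.

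**Figure D4:**
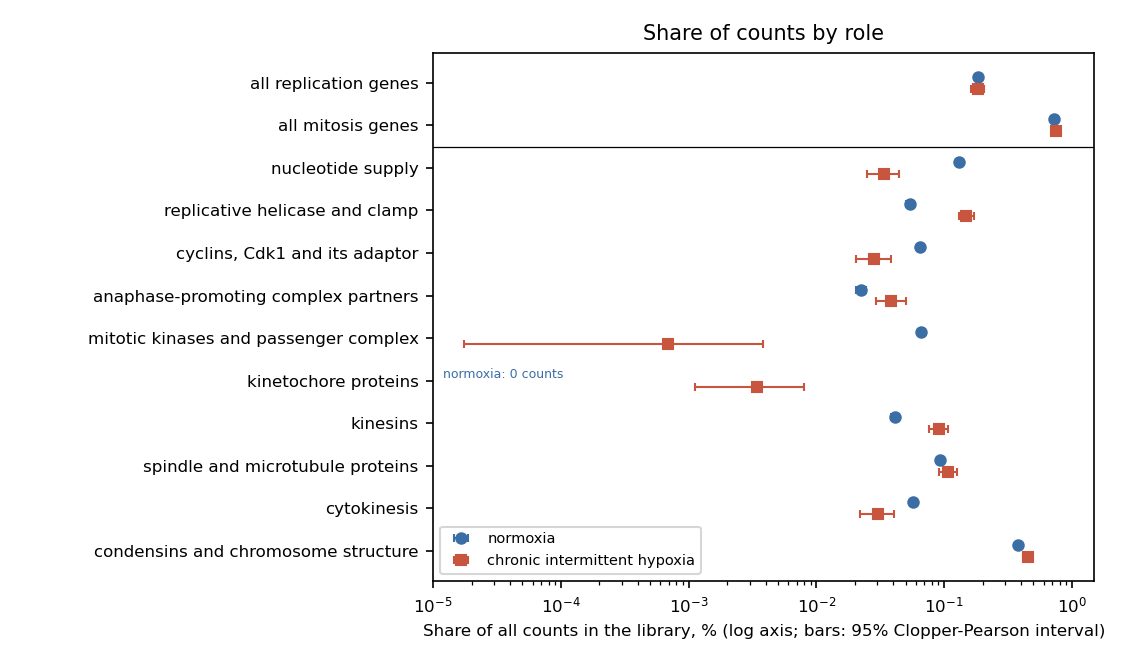
Share of each library's counts (log axis) held by all replication genes, all mitosis genes and each role, with 95% Clopper-Pearson intervals, circles for normoxia and squares for hypoxia. The phase totals lie close together, while nucleotide supply is at 0.131% and 0.0338%, and the helicase and clamp genes are at 0.0537% and 0.149%.

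Rrm1, the large subunit of ribonucleotide reductase (ENSMUSG00000030978, chromosome 7, 102441695 to 102469771 on GRCm38 in GENCODE M21, as are all gene positions here), had 1447 counts under normoxia and none under hypoxia. Folds given here for a gene at 0 put 3 counts in place of the 0 and are not interval limits. By this measure Rrm1 was 56.2-fold lower after TMM. Scaled to a common library total, as CPM, it held 666 in normoxia, and the level of 3 estimated molecules in hypoxia was 807 CPM, so on molecules its absence is within what that library allows. Its partner Rrm2, the small subunit whose level sets enzyme activity in S phase, was present in both libraries at nearly the same share, with 698 and 49 counts (321 and 338 CPM). The TMM ratio of Rrm2 was 0.602 (0.441 to 0.805), short of 2-fold. On reads, the 2 subunits of the same enzyme thus differed in the hypoxia library. On estimated molecules the intervals of their TMM ratios overlap, so this difference between Rrm1 and Rrm2 is not resolved. Tk1, which salvages thymidine, had 598 and 0 counts, 23.2-fold lower against 3 counts. Tyms, which makes thymidylate, had 100 and 0, 3.89-fold lower. Dut, the dUTPase that keeps uracil out of DNA, had 0 counts in both libraries.

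Of the 6 helicase subunits, Mcm2 and Mcm3 had 0 counts in both libraries although the subunits act as 1 ring. Mcm6 (chromosome 1, 128331590 to 128359664) had 287 and 94 counts (132 and 648 CPM), a TMM ratio of 2.81 (2.2 to 3.56) that met the rule for higher. Mcm7 (chromosome 5, 138164583 to 138172422) had 435 and 87 counts (200.3 and 599.8 CPM), a ratio of 1.72 (1.35 to 2.16). Scaling to total counts raises the Mcm7 ratio to 2.99 and past the rule. Mcm4 had 0 and 33 counts, 94.3-fold higher against 3 counts in normoxia, too few in sum to be measured under the rule. Mcm5 went the other way with 126 and 0 counts, 4.90-fold lower against 3 counts. Mcm7 overlaps exons of Ap4m1 on the opposite strand over 7.25% of its exon bases and Cops6 over 1.45%, and with no strand setting given such reads cannot be told apart. Cops6 had 0 and 57 counts and Ap4m1 had 0 in both. Pcna, the sliding clamp, had 319 and 2 counts, a ratio of 0.0538 (0.00648 to 0.196). Its pseudogene Pcna-ps2 had 1 and 0 counts.

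Chromosome structure genes held the largest share of the set in each library. All 6 genes of this role were counted in normoxia and 5 in hypoxia, and they took 0.382% and 0.449% of counts, 42.0% and 48.2% of the set. Hmgb2, an HMG-box chromatin protein abundant in dividing cells (chromosome 8, 57511907 to 57515999), had the most counts of the set in each library. Its counts were 2967 and 280 (1366 and 1930.3 CPM), a TMM ratio of 0.809 (0.713 to 0.915). Per length it stood at 832 and 903 TPM, rank 125 of the counted genes in normoxia and rank 126 in hypoxia. Top2a, the topoisomerase that untangles sister chromatids (chromosome 11, 98992943 to 99024189), had 1151 and 138 counts, a ratio of 1.03 (0.856 to 1.23). Smc4, an ATPase of condensin (chromosome 3, 69004738 to 69034623), had 945 and 160 counts, a ratio of 1.45 (1.22 to 1.72), and its partner Smc2 had 133 and 16, a ratio of 1.03 (0.573 to 1.74). None of these 4 met the 2-fold rule with TMM, while Smc4 was called higher on total counts (2.53). Ncapd2, the non-SMC subunit of condensin I, had 266 and 0 counts, 10.3-fold lower against 3 counts.

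Mki67 was the only gene of the set called on estimated molecules as well as on reads with TMM. It encodes Ki-67, the coat protein of mitotic chromosomes used as the standard mark of proliferating cells (chromosome 7, 135689784 to 135716361). Its counts were 2825 and 58 (1301 and 399.8 CPM), which is 14.3% of the set's counts in normoxia and 4.29% in hypoxia. The TMM ratio was 0.176 (by reads 0.133 to 0.228, by molecules 0.0113 to 0.925). Scaled to total counts the ratio was 0.307, with limits by molecules of 0.0198 to 1.61, so the call on molecules is lost under that scaling. Hmgb2, close to it in normoxia, made up 15.0% and 20.7% of the set's counts.

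The 3 cyclins were counted in normoxia alone. Ccna2 (cyclin A2, active from S phase to early mitosis) had 679 and 0 counts, Ccnb1 had 293 and 0, and Ccnb2 had 266 and 0. Against 3 counts they were 26.4-fold, 11.4-fold and 10.3-fold lower. Cdk1, the kinase that these cyclins activate, had 0 counts in both libraries. Cks2, the small adaptor that docks Cdk1 on its substrates, had 162 and 41 counts (74.6 and 283 CPM), a ratio of 2.17 (1.5 to 3.07) that met the rule for higher. Exons of Exosc9 on the opposite strand overlap 12.5% of the exon bases of Ccna2, and Exosc9 had 123 and 0 counts.

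Kinases and the chromosomal passenger complex had a single count in the hypoxia library. Birc5 (survivin, which targets the complex to centromeres) had 732 and 0 counts, 28.4-fold lower against 3 counts. Aurka, the spindle pole kinase, had 406 and 0, 15.8-fold lower. Incenp, the scaffold of the complex, had 281 counts and 1 count, a ratio of 0.0305 (0.000770 to 0.171). Together the role took 0.0654% of counts in normoxia and 0.000689% in hypoxia, and on molecules the ratio of 0.0105 had an upper limit of 2.11. Aurkb, the kinase of the passenger complex, Plk1, and the checkpoint kinases Bub1 and Bub1b had 0 counts in both. The kinetochore motor Cenpe was also at 0 in both, and Cenpf had 0 and 5 counts. For the exit from mitosis, Ube2c, the ubiquitin-conjugating enzyme of the anaphase-promoting complex, had 482 and 26 counts, a ratio of 0.463 (0.299 to 0.686). Scaled to total counts it was 0.807, short of 2-fold. Cdc20, an activator of that complex, had 0 and 30 counts, 85.8-fold higher in hypoxia against 3 counts but too few to be measured under the rule. Tnnc2 on the opposite strand shares 22.8% of the exon bases of Ube2c and had 0 counts in both libraries.

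The motors and spindle proteins held both the highest ratio among the 17 genes counted in both libraries and several absences. Kif11 (Eg5, which pushes spindle poles apart, chromosome 19, 37376403 to 37421859) had nearly the same raw count in both libraries, 123 and 122, despite the 15.0-fold difference in depth. That is 56.6 and 841 CPM and a TMM ratio of 8.51 (by reads 6.57 to 11.0), whereas on molecules the lower limit was 0.468. Kif15, which can stand in for Kif11 at the spindle, had the reverse pattern with 456 and 0 counts, 17.7-fold lower against 3 counts. Kif23, the kinesin of the central spindle, had 309 and 10 counts, a ratio of 0.278 (0.132 to 0.517). Kif4, Kif20a and Kif22 had 0 in both. Among spindle proteins Tpx2, which activates Aurka, had 95 and 43 counts, a ratio of 3.88 (2.64 to 5.62). Prc1, the bundler of the central spindle (chromosome 7, 80294450 to 80316259), had 0 and 51 counts, 145.8-fold higher against 3 counts in normoxia. Nusap1, which stabilizes microtubules near chromosomes, had 608 and 0 counts, 23.6-fold lower against 3 counts. Stmn1, the tubulin-sequestering protein stathmin, had 1300 and 62 counts (599 and 427 CPM), for a ratio of 0.409 (0.312 to 0.528). On total counts the Stmn1 ratio was 0.714, short of 2-fold. Rccd1 on the opposite strand overlaps 11.1% of the exon bases of Prc1 and had 0 counts in both.

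Cytokinesis genes split in the same way. Anln, the actin-binding scaffold of the cleavage furrow, had 927 counts in normoxia and 1 count in hypoxia, a ratio of 0.00925 (0.000234 to 0.0517). Racgap1, which with Kif23 forms centralspindlin, had 310 and 0 counts, 12.05-fold lower against 3 counts. Ect2, the exchange factor that centralspindlin recruits to switch on RhoA, had 0 and 43 counts, too few to be measured under the rule. Against 3 counts it was 123-fold higher. So Racgap1 and Ect2, partners in furrow placement, were each counted in a different library, on about 1.35 and 1.10 estimated molecules. At that number the difference in presence is not resolved.

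Across roles, the 13 genes at 0 in hypoxia had between 100 and 1447 counts in normoxia, with a median of 406. All 13 exceeded the 20.7 CPM that 3 reads make in hypoxia, and all 13 lay below the 807 CPM of 3 estimated molecules. The 5 genes at 0 in normoxia (Mcm4, Cdc20, Cenpf, Prc1 and Ect2) had 5 to 51 counts in hypoxia. A count of 0 allows up to 1.38 CPM in normoxia on reads and 316 CPM on molecules. Of the 5 genes Prc1 alone, at 352 CPM in hypoxia, exceeded the latter level. By the limits of the TMM ratio on molecules, none of the differences in presence is resolved. The closest limits were 1.16 above for Rrm1 and 0.0925 below for Prc1, so both intervals include 1.

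Further cell cycle genes were taken from 4 lists that do not overlap the set. Fewer of their genes counted in normoxia were also counted in hypoxia, with 2 of 7 for origin licensing (28.6%), 2 of 15 for polymerases and fork (13.3%), 3 of 7 for G1/S regulators (42.9%) and 6 of 21 for other mitotic genes (28.6%). These shares stand beside 56.7% in the set and 25% over all genes, and the difference was not tested. The lists were not matched to the set by counts. Counted genes of the set had at least 95 counts in normoxia, while the lists held genes with as few as 7. Of all genes with 1 to 99 counts in normoxia 13.4% were counted in hypoxia. Of 17 genes of origin licensing and firing, 7 were counted in normoxia and 6 in hypoxia, with 4 of 6 measured genes lower and 1 higher. Cdc6, which loads the helicase, had 331 and 37 counts, a ratio of 0.959 (0.663 to 1.35), while Gmnn, the inhibitor of licensing, had 0 and 52. Gins4, a subunit of the active helicase, had 554 and 29 counts, a ratio of 0.449 (0.298 to 0.652), and Mcm10 had 0 and 33. Of 30 polymerase and fork genes, 15 and 5 were counted, with 9 of 14 lower and 3 higher. Dna2 (427 counts), Chaf1a (364) and Pold1 (293) had 0 in hypoxia, and Asf1b (99), Fen1 (55) and Rpa3 (50) had 0 in normoxia. Uhrf1 (227 and 35 counts) and Rpa1 (187 and 32) were counted in both, with ratios of 1.32 and 1.47. Each of these lists thus held genes seen in normoxia alone and genes seen in hypoxia alone.

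Of 20 G1/S regulators, 7 and 4 were counted, with 5 of 7 lower and 1 higher. Ccnd3, a D-type cyclin prominent in blood cells, had 48 and 75 counts, a ratio of 13.4 (9.21 to 19.7). E2f2, an E2F factor prominent in red cell precursors, had 502 and 32, a ratio of 0.547 (0.370 to 0.782), and Rb1, the brake on E2F, had 311 and 16, a ratio of 0.441 (0.249 to 0.728). Cdkn2c (555), Ccne2 (533) and Cdkn2d (514) had 0 in hypoxia. Of 53 other mitotic genes, 21 and 10 were counted, with 14 of 21 lower and 5 higher. The cohesin genes Smc1a (1040 and 61 counts), Rad21 (1002 and 0) and Smc3 (986 and 0) had the most counts in normoxia. Those with the most in hypoxia were Fbxo5, the inhibitor of the anaphase-promoting complex, at 220 and 125 counts (ratio 4.87, 3.88 to 6.10), Melk with 0 and 67, and Smc1a. Also counted in both were Tacc3 (677 and 15), Mad2l1 (464 and 29), Cenpa (115 and 55) and Ncaph2 (75 and 54), with ratios of 0.190, 0.536, 4.10 and 6.18. The share of measured genes called lower was 66.7%, 64.3%, 71.4% and 66.7% in the 4 lists, beside the background of 75.7% over all measured genes. The share called higher was 16.7%, 21.4%, 14.3% and 23.8%, beside 11.9%. On estimated molecules no gene of the 4 lists was called, beside a background of 1.3% lower and 0.19% higher.

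Markers of other cell types differed between the libraries too, where 25% of all genes counted in normoxia were also counted in hypoxia. The erythroid list held 10.2% and 8.11% of counts, with 17 and 10 of 17 markers counted. The erythroid regulators Klf1 (694 counts) and Gata1 (544) and the band 3 gene Slc4a1 (4373) were at 0 in hypoxia, and the transferrin receptor gene Tfrc had 517 and 132 counts. Mature neutrophil genes took 1.81% and 10.3%, with 9 and 10 of 13 markers counted. Neutrophil precursor genes took 0.0409% and 0.111%, with Mpo at 506 and 0 counts, Ms4a3 at 129 and 0, Fcnb at 0 and 92, Cebpe at 0 and 36 and Elane at 0 and 29. Macrophage markers without Lyz2 took 0.512% and 0.00414%, with Cx3cr1 (1170 and 6 counts) alone counted in hypoxia. B cell and precursor markers took 0.0537% and 0.0972%, with 5 and 2 of 13 counted, among them Vpreb3 with 80 and 86 counts. The T and NK cell list held Cd4 alone (350 and 0), the fibroblast list had 3 of 6 markers in normoxia and none in hypoxia, and the endothelial list was at 0 in both. Of the sensory neuron list Isl1 alone was counted (0 and 60), and of the glial list Apoe had 12776 and 249 counts, Glul 129 and 85, and Mbp 0 and 58. In these bulk libraries the number of dividing cells and the RNA per dividing cell cannot be told apart. The part of these cell types in the values of the replication and mitosis genes was not tested.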

How the data were processed

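The authors deposited read counts per gene as whole numbers for both libraries, with no normalization, and TPM values (counts per gene length, scaled to the same total per library) for the same genes, whose zeros fell at the same genes (100%). The submitters' processing notes name bcl2fastq 2.20, the aligner STAR 2.5.2b, and featureCounts with Subread 1.5.2. Libraries came from a NEBNext Ultra II kit after TRIzol extraction, per the labels' protocols. No molecular identifiers are mentioned, so copies of 1 molecule could not be merged. The sources used here do not give the build, annotation or strand setting.

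Column codes were read as normoxia (initial N, number 1) and hypoxia (initial C). Gene positions are those of GENCODE M21 (GRCm38), which held 48970 of 49315 identifiers and all 47 genes. The 174 genes without a symbol held 0.0230% of normoxia counts.

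Shares and CPM are relative to total counts, and TPM was used for levels between genes. Ratios were scaled by TMM with edgeR 4.0.16 in R 4.3.3 (factors 0.757 and 1.32), with exact conditional binomial 95% intervals (scipy 1.17.1). A gene was measured with at least 50 counts over both libraries, and called at 2-fold with an interval that excluded 1. For log2 ratios 0.5 was added to each count. Folds for a gene at 0 put 3 counts in place of the 0 and are not interval limits. Intervals on estimated molecules divide counts by 229 in normoxia and 39 in hypoxia, an untested assumption. With 1 library per group no test across conditions was possible. All 47 genes are named; of each other list, up to 3 genes with most counts in normoxia, up to 3 with most in hypoxia and those counted in both were eligible, and not all are given. Csf1r, Gata1, Klf1 and Slc4a1 fall outside that rule and were named after their values were seen. The genes and lists were chosen with earlier results of these data known. Alternatives were total counts, DESeq2 1.42.0 size factors, housekeeping scaling, other count minimums, a 4-fold rule, other treatments of 0 and leaving out leading genes.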

Additional observations from a re-analysis of the deposited data

How the results depend on the processing

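No paired analysis was possible because each group has 1 library, and no library could be left out. The count of 20 lower genes stayed between 17 and 20 under other scalings, count minimums and a 4-fold rule, while the share over all measured genes ran from 59.0% to 76.8%. It was 1 (Mki67) with intervals on estimated molecules (1.30% of all genes). The count of 5 higher genes (11.9% of all measured genes) was 5 with DESeq2 size factors (12.1% of all), 7 on total counts (16.1%) and with housekeeping scaling (15.5%), 9 with at least 1 count (20.7%), 3 with at least 200 counts (5.63%), 2 at 4-fold (7.97%) and 0 on molecules (0.190%). The 2 added on total counts were Mcm7 and Smc4, and Ube2c and Stmn1 were no longer called lower. The median log2 ratio of −3.90 turned to 0.56 with each 0 taken as 3 estimated molecules (1.55 over all genes), and was −0.30 beside −0.10 over genes counted in both libraries, an alternative added after seeing the data. For the set, the ratio of shares of 1.03 was 0.588 with TMM, 0.947 with housekeeping scaling, 1.11 with erythroid and neutrophil markers out of the total, 0.958 without Hmgb2 and 1.09 without Mki67 and Hmgb2 (added after seeing the data). For replication genes 0.989 became 0.567 with TMM, 0.745 without Mcm7, the gene with the largest summed share, and 1.55 without Rrm1 (added after seeing the data), so the equality of the replication shares rests on single genes. For mitosis genes 1.04 became 0.593 with TMM, 0.956 with housekeeping scaling, 1.12 without the erythroid and neutrophil markers and 0.948 without Hmgb2. Without Hmgb2, Stmn1 and Top2a it was 0.882 (by reads 0.812 to 0.958, by molecules 0.462 to 1.60). Replication counts over mitosis counts, 0.255 in normoxia and 0.244 in hypoxia, were 0.208 and 0.214 in TPM, 0.315 and 0.328 without Hmgb2, and 0.389 and 0.437 without Hmgb2, Stmn1 and Top2a. This balance was not recomputed without a replication gene such as Rrm1. With at least 10 counts in each library 14 genes of the set were counted in both, in place of 17. Over all genes with at least 10 counts in normoxia, 1020 of 4197 (24.3%) had as many in hypoxia. Pcna, Incenp and Anln, with 2, 1 and 1 counts in hypoxia, were lost. TMM and total counts differ by −0.80 on the log2 scale for every gene. The few estimated molecules in hypoxia limit every statement on a single gene.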

Other observations

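Tubulin and chromatin genes that dividing and resting cells both use held 0.669% and 0.636% of the counts, and the ratio was 0.951 (by estimated molecules 0.566 to 1.55). Of 18 such genes 15 and 11 were counted, 7 of 14 measured genes were lower, 7 met neither and none was higher, beside a background of 75.7% lower and 11.9% higher over all measured genes. The histone variant gene H2afz had 1372 and 217 counts, for a TMM ratio of 1.36 (1.17 to 1.57), and H3f3b had 2067 and 143, a ratio of 0.593 (0.497 to 0.703). H3f3a, which encodes the same H3.3 protein as H3f3b, had 2273 and 0 counts. Tubb5 had 2013 and 97 counts, a ratio of 0.413 (0.334 to 0.507), and Tuba1b had 1040 and 40, a ratio of 0.330 (0.234 to 0.452). These genes have near-identical copies that may share reads, so their values are uncertain.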
